A study of Drosophila pseudoobscura and Drosophila ananassae and Drosophila yakuba with 13 samples.

Results

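Heterochromatin protein 1 (HP1) genes of Drosophila pseudoobscura were compared between testis and ovary. The family was taken as every gene of the D. pseudoobscura table whose symbol begins with HP1, which gave 5 of 11946 genes: HP1A, HP1B and HP1C, the ancestral genes, and HP1Da and HP1Kcd, listed as lineage-specific duplicates. The choice rests on symbols only. The D. ananassae table, with 11576 genes, held 0 symbols that begin with HP1. Small RNAs left out, 213 genes carried a symbol in D. pseudoobscura and 59 in D. ananassae. The remaining genes, given by identifier only, could not be sought by name. A gene not found under its symbol may therefore still have been measured.

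HP1 proteins are small chromatin proteins known from D. melanogaster and many other animals. A typical member has a chromodomain, which binds histone H3 methylated on lysine 9, and a chromoshadow domain, through which HP1 proteins pair and bind partners. In D. melanogaster HP1A is a main structural protein of silent heterochromatin, and the family as a whole also acts in the germline, where Rhino, known as HP1D, marks the loci that give rise to piRNAs. The family is known for gene duplicates that are expressed mainly in one gonad.

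The libraries were made from polyadenylated RNA of dissected gonads of wild-type, virgin adults aged 6 to 10 days, with ducts removed and without Wolbachia, and were read as single reads of 50 bases. D. pseudoobscura, stock 14011-0121.94 grown at 20 °C, gave 2 testis and 3 ovary libraries. D. ananassae, stock 14024-0371.13 grown at 25 °C, gave 2 testis and 2 ovary libraries. The 1 testis and 3 ovary libraries of D. yakuba, strain CSN grown at 25 °C, were not used here. The aim stated in the title of the series was to find genes with sex-biased expression in the gonad. Nothing in the labels says whether the libraries of a tissue came from separate collections of flies, so p-values rest on spread between these libraries, which may be technical. The errors derived below varied little among genes of similar average, so a gene's own spread between libraries cannot be read from its p-value.

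The deposited table gave each gene 1 log2 fold change, 1 average over both tissues and 1 test, with no value per library. Depth and the values per replicate are therefore unknown. A positive fold change is read as higher in testis. The header does not give this direction, which was taken from the tissue that the title puts first and from TrxT and dhd, thioredoxins known in D. melanogaster for testis and for the female germline, at 5.89 and -17.3 in the authors' deposited table. Those genes are therefore no independent evidence of direction. A gene was called biased at an adjusted p (the authors' false discovery rate) under 0.05.

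HP1Kcd was higher in testis, and HP1A, HP1C, HP1B and HP1Da were higher in ovary. The family thus had 1 member called towards testis, where 29.6% of all genes were, and 4 called towards ovary, where 44.1% of all genes were. Among the 213 genes with a symbol, small RNAs left out, the shares were 24.4% towards testis and 49.3% towards ovary. With 5 genes, 4 calls towards ovary is not a share that sets the family apart. Under Bonferroni adjustment 0 members were called towards testis and 2 towards ovary, and at a threshold of 0.01 there were 3 towards ovary. The fold changes lay between HP1Kcd at 5.29 and HP1Da at -13.8 in the authors' deposited table. In bulk tissue, fewer cells that express a gene and less RNA per cell cannot be told apart.

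**Figure D1:**
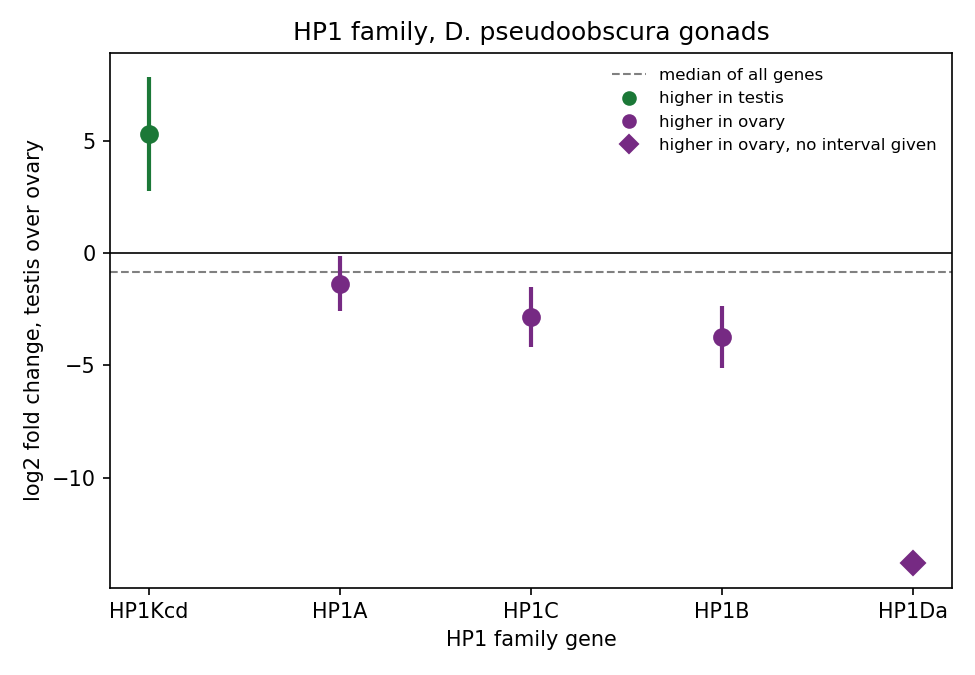
Log2 fold change of testis over ovary (vertical axis) for the 5 HP1 genes of D. pseudoobscura, with approximate 95% intervals as lines and the median of all genes dashed. HP1Kcd lies above 0 at 5.29, HP1A at -1.36, HP1C at -2.84 and HP1B at -3.74 lie below 0, and HP1Da at -13.8 is drawn without an interval.

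HP1A, the founding member and the classical heterochromatin protein of D. melanogaster, had the smallest difference of the family. Its log2 fold change was -1.36 in the authors' deposited table, with an adjusted p of 0.0416 by the authors' edgeR likelihood-ratio test. This is a level 2.57 times lower in testis than in ovary, and of the summed level of both tissues 28.0% was in testis and 72.0% in ovary. An approximate error was derived from the deposited fold and likelihood ratio, 0.63 on the log2 scale, which gives HP1A an interval of -2.59 to -0.13. The median gene of the table stood at -0.85. Relative to that gene HP1A was at -0.51, with an interval of -1.75 to 0.72, so its difference from the median gene lay within the error. The call of HP1A was lost at a threshold of 0.01 and under Bonferroni adjustment.

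HP1C, which in D. melanogaster is found mostly in euchromatin with the zinc finger proteins WOC and ROW, was lower in testis by a larger factor. Its log2 fold change was -2.84 in the authors' deposited table, with an adjusted p of 5.25e-05 by the authors' edgeR likelihood-ratio test. The level was 7.17 times lower in testis, which held 12.2% of the summed level against 87.8% in ovary. The approximate interval ran between -4.17 and -1.51, and between -3.32 and -0.66 relative to the median gene, so HP1C was lower in testis on both readings. Its call was lost under Bonferroni adjustment (p = 0.336 from the authors' edgeR test).

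HP1B, found in both euchromatin and heterochromatin in D. melanogaster, was the most ovary-biased of the ancestral genes. The log2 fold change was -3.74 in the authors' deposited table, with an adjusted p of 3.21e-07 by the authors' edgeR likelihood-ratio test. This corresponds to a level 13.4 times lower in testis, with 6.96% of the summed level in testis and 93.0% in ovary. Its interval of -5.13 to -2.35, or -4.29 to -1.50 relative to the median gene, excluded 0 both ways.

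The order HP1A, HP1C, HP1B was resolved only between its ends. HP1A exceeded HP1B by 2.38 on the log2 scale, with an approximate interval of 0.52 to 4.24. Neighbours were closer: HP1A exceeded HP1C by 1.48 with an interval of -0.33 to 3.29, and HP1C exceeded HP1B by 0.90 with an interval of -1.03 to 2.83, so both pairs lay within their error. These intervals are descriptions that treat the errors of the genes as independent, and no p was computed for them.

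**Figure D2:**
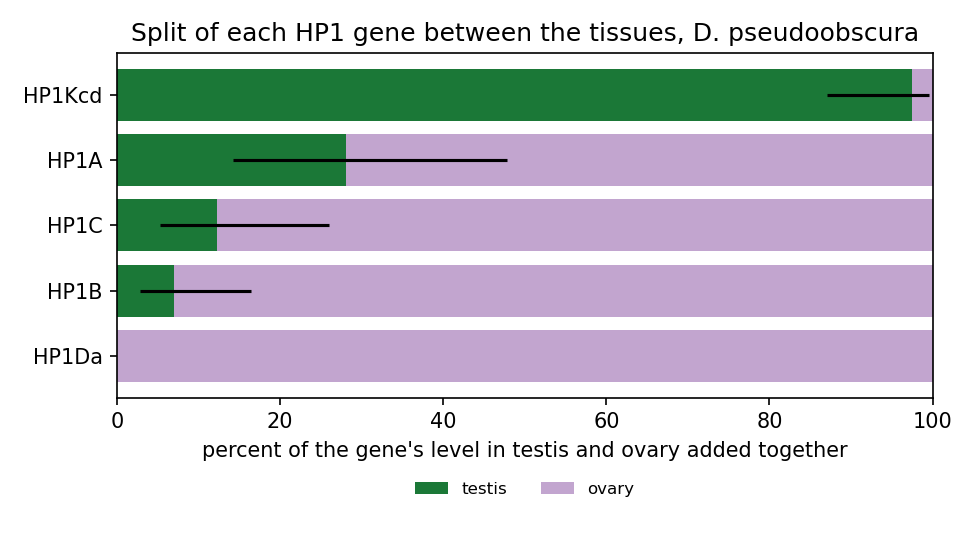
Share of each HP1 gene's level in testis (green) and in ovary (light purple), as a percent of both tissues added together, computed from the deposited fold change. Black lines are the approximate 95% intervals of the testis share. HP1Kcd is 97.5% in testis, HP1A 28.0%, HP1C 12.2% and HP1B 6.96%, while the testis share of HP1Da is too small to see and has no interval.

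HP1Da, one of the duplicates, had the most extreme value of the family. Its log2 fold change of -13.8 came with an adjusted p of 9.26e-35 by the authors' edgeR likelihood-ratio test in the authors' deposited table. A lower fold change was listed for 43 genes, which puts HP1Da in place 44 of 11946 counted from the ovary end. It lay 10.1 log2 units below HP1B, the next member. Its fold was close to the lowest listed at its abundance: among 4476 genes with an average within 1 log2 unit of its own, 19 had a lower fold change, and the lowest stood at -15.2 in the authors' deposited table. Where testis has next to no reads, the size of the fold is set by the handling of near-zero counts in the fit. It is not a bound on the difference, and no interval is given for it.

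HP1Kcd, the other duplicate, was the member called towards testis. Its log2 fold change was 5.29 in the authors' deposited table, with an adjusted p of 8.19e-05 by the authors' edgeR likelihood-ratio test. The level in testis was 39.1 times that in ovary, with an approximate interval of 6.72 to 227 times, and 97.5% of the summed level was in testis against 2.50% in ovary. The error behind this interval was 1.30 on the log2 scale. The median error was 0.71 over genes of similar average with absolute folds of 0.2 to 5, which leave out a fold such as its own. Over genes similar in both average and fold it was 0.87. The call of HP1Kcd was lost under Bonferroni adjustment (p = 0.532 from the authors' edgeR test). This is a large fold but not an extreme one for testis, since 2525 genes had a higher fold change and the median of the genes called towards testis was 8.67 in the authors' deposited table. HP1Kcd exceeded HP1A, its neighbour in the order of folds, by 6.65 on the log2 scale, with an interval of 3.83 to 9.47.

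HP1Kcd also had the lowest average of the family, 1.23 on the rescaled log2 scale. The averages of HP1Da, HP1C, HP1B and HP1A on that scale were 5.42, 5.11, 6.06 and 7.06. These are averages over both tissues and are not divided by transcript length, so they show how much signal stands behind each fold and not which protein gene is the more active. By this measure 15.9% of the genes in the table had a lower average than HP1Kcd, 54.8% than HP1C, 60.7% than HP1Da, 73.5% than HP1B and 88.6% than HP1A.

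**Figure D3:**
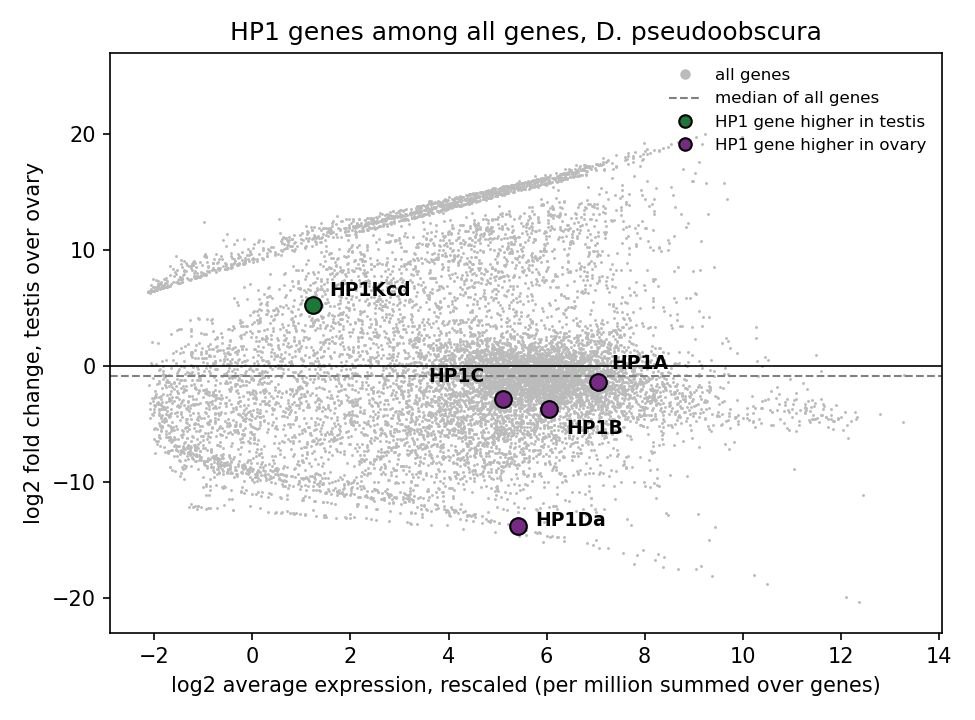
Log2 fold change of testis over ovary (vertical axis) against the rescaled log2 average expression over both tissues (horizontal axis) for all 11946 genes of D. pseudoobscura in grey, with the HP1 genes marked and the median fold dashed. HP1A, HP1B and HP1C lie in or near the dense cloud of genes, HP1Da lies near the lower edge of all genes at its abundance, and HP1Kcd lies among genes of low average.

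Set against genes of similar abundance, the members differed in how unusual their folds were. Of 2636 genes with an average within 1 log2 unit of HP1A, 42.0% had a lower fold change than HP1A, and their median was -0.93 in the authors' deposited table, so HP1A stood near the middle. For HP1C 24.8% of 4289 such genes were lower, for HP1B 15.0% of 4185, and for HP1Da 0.42% of 4476. For HP1Kcd 26.1% of 1307 such genes had a higher fold change than it did. At the abundance of HP1Kcd 42.2% of genes were called towards testis and 44.1% towards ovary, so a call towards testis was common there.

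The error behind each test also differed. Errors of HP1A, HP1C and HP1B, at 0.63, 0.68 and 0.71 on the log2 scale, lay close to the medians of 0.63, 0.67 and 0.70 over genes with both a similar average and a similar fold. These errors varied little from gene to gene: among genes near HP1A in average the middle range was 0.61 to 0.66. A member's own spread between libraries therefore cannot be read from them. For HP1Kcd the error was 1.30, larger than that of each of the 103 genes within 1 log2 unit of it in both average and fold, whose errors ran between 0.69 and 1.27 with a median of 0.87. What set HP1Kcd apart from these genes was not tested, since no values per library were at hand.

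Markers of other tissues moved with the same contrast. Of 12 muscle genes on a marker list 3 were measured, and all 3 were called towards ovary, Tm2 at -9.21, Mlc1 at -7.35 and Tm1, the least extreme, in the authors' deposited table. Of 7 accessory gland genes 2 were found under a listed symbol, Acp26Aa at 5.56 and Acp53Ea at 9.05, both called towards testis in the authors' deposited table. Over all genes 29.6% were called towards testis and 44.1% towards ovary. Both accessory gland genes had rescaled averages below 0, at -0.32 and -0.35, and drop out where a minimum average of 0 is set. Levels per library cannot be summed for these lists, and 0 of 5 fat body and 0 of 13 follicle cell markers were measured under their listed symbols. Their part in the HP1 results was not tested. The maternal gene bcd, which was not used to read the direction, was called towards ovary at -9.82 in the authors' deposited table.

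The genes whose fold change was nearest to each member, among protein-coding genes with a symbol, were named as a measure of likeness over this 1 contrast. Nearest to HP1A was cid, the centromeric histone H3 variant, at -1.39, followed by fak, a focal adhesion kinase, at -1.32 in the authors' deposited table. The genes RpII215, the largest subunit of RNA polymerase II, and Pak3, a kinase, both at -3.76, were nearest to HP1B in the authors' deposited table. For HP1C the nearest were the gustatory receptor gene Gr59b at -2.83 and the amylase gene Amy2 at -2.80 in the authors' deposited table. Average was not matched: the rescaled averages of Gr59b and Amy2 were -1.87 and 1.58, against 5.11 for HP1C. HP1Da had no such close neighbour among the 213 genes with a symbol, members left out. Its nearest were Ama, an immunoglobulin-domain gene, at -13.4 and the maltase gene Mal-A5 at -12.7 in the authors' deposited table. Over all genes, with or without a symbol, 34 lay within 1 log2 unit of HP1Da in both average and fold. HP1Kcd lay beside the gustatory receptor gene Gr33a at 5.30 and Ovd at 5.42 in the authors' deposited table, and Gr33a had a rescaled average of only 0.15.

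Partners of HP1 and other chromatin genes were sought from lists of 59 D. melanogaster symbols. In D. pseudoobscura 4 were found under a listed symbol beside the HP1 genes, and the others may be present by identifier only. Of the 4 found, 0 were called towards testis and 3 towards ovary, where 29.6% and 44.1% of all genes were. Their median was -1.49, where that of all genes was -0.85. With 4 genes these counts do not set the lists apart from all genes. The called genes were cid at -1.39, msl-1 of the dosage compensation complex at -1.59 and Dref, a transcription factor of proliferation genes, at -2.65 in the authors' deposited table. Lhr, which encodes a heterochromatin protein that binds HP1 and acts in hybrid lethality, was not called, at -0.38 with an adjusted p of 0.574 by the authors' edgeR likelihood-ratio test in the authors' deposited table. A further partner is listed as HP2, a symbol outside the listed spelling and named after its value was seen, and it stood at -1.56 with an adjusted p of 0.0199 by the same edgeR test in the authors' deposited table. HP2, cid and msl-1 had intervals that, relative to the median gene, reached both sides of 0, at -1.96 to 0.53, -1.78 to 0.70 and -1.99 to 0.50, as that of HP1A did. The interval of Dref, -3.12 to -0.49, did not.

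In D. ananassae the HP1 paralog measured under a listed symbol was rhi, the gene of Rhino. Its log2 fold change was -2.25, with an adjusted p of 3.06e-16 by the authors' edgeR likelihood-ratio test in the authors' deposited table, a species in which 31.7% of all genes were called towards testis and 53.8% towards ovary. Relative to the median gene rhi was at -1.32, with an interval of -1.86 to -0.79, and 32.5% of genes had a lower fold change. The interval of the fold itself, -2.78 to -1.72, was narrower than those of the D. pseudoobscura members. Errors were smaller in this table, with a median of 0.27 among genes of rescaled average 4 to 8 against 0.63 in D. pseudoobscura. Whether HP1Da is a copy of rhi is not annotated in the files, so the values of the genes are not compared.

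In D. ananassae 6 chromatin genes, rhi included, were found under a listed symbol. Of these 1 was called towards testis and 4 towards ovary, where 31.7% and 53.8% of all genes were. With 6 genes these counts do not set the lists apart from all genes. Pof, whose product coats the fourth chromosome in D. melanogaster, was the gene called towards testis, at 7.70 in the authors' deposited table. Lhr was again not called, at 0.17 with an adjusted p of 0.547 by the authors' edgeR likelihood-ratio test in the authors' deposited table. Beside HP1A's neighbour cid at -1.39 in D. pseudoobscura, cid stood at -5.53 in D. ananassae, and Dref at -4.53 and msl-1 at -6.86 in the authors' deposited table. The species differ in growth temperature and in table, and the differences between them were not tested.

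**Figure D4:**
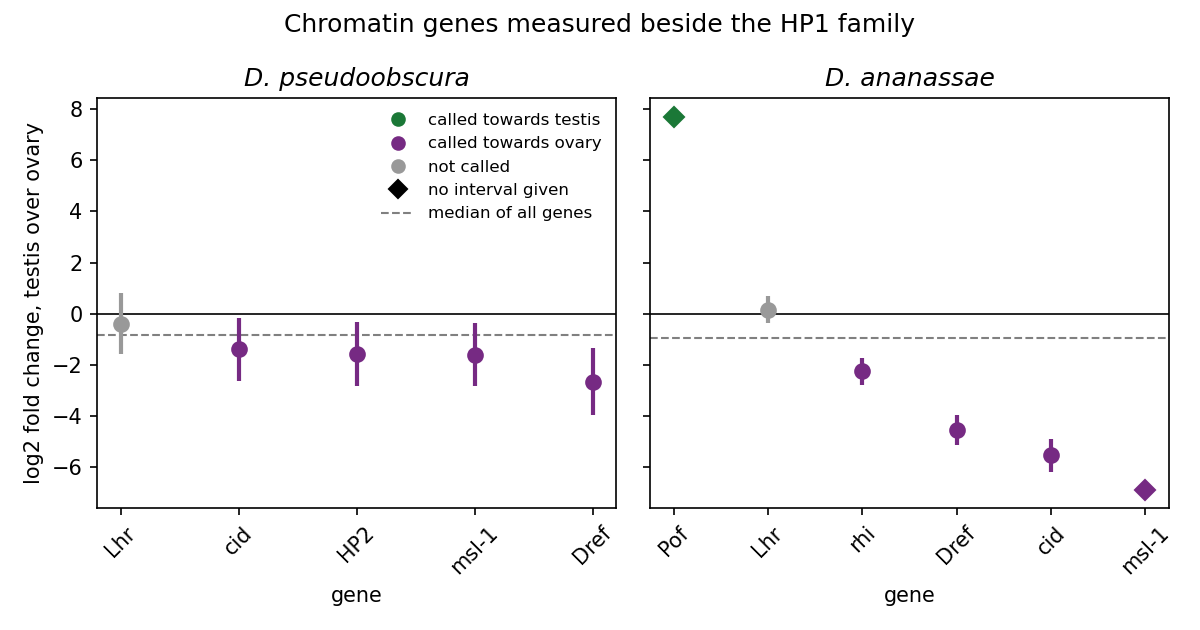
Log2 fold change of testis over ovary (vertical axis) for chromatin genes measured beside the HP1 family in D. pseudoobscura (left) and D. ananassae (right), with approximate 95% intervals for folds up to 6 log2 units and the median of all genes dashed. In D. pseudoobscura 4 genes lie below 0 with a call, among them HP2, which was added after its value was seen, and Lhr is grey at -0.38, while in D. ananassae Pof stands at 7.70 and rhi at -2.25.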

How the data were processed

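RNA of testis and ovary was sequenced in 3 species, and tables of 2 species were used. The tools named in the submitters' processing notes are edgeR, HTSeq 0.5.4p3, Bowtie2 2.1.0, and Cuffdiff and Cufflinks, both 2.1.0. Build, annotation, count filter and normalization: not given in the sources used here. Per the file headers, the deposited tables give for each gene a p-value, its false discovery rate, a log2 fold change, an average on the log2 scale and the likelihood ratio (a score deposited by the authors, with 1 degree of freedom). The tables have 0 columns per library. The header calls the average log CPM, yet on a linear scale the values of D. pseudoobscura summed to 8.09e+06 times 1000000, so it was rescaled to a sum of 1000000. Recomputed Benjamini-Hochberg values differed from the deposited rate by at most 0.82%.

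An approximate error was computed as the absolute log2 fold change over the square root of the likelihood ratio. Intervals at 95% were 1.96 errors, for absolute folds up to 6. The error was tried on simulated data with a fixed, known spread between libraries. How the authors' fit estimated that spread is not given in the sources used here, so the simulation may differ from it. The simulated data held only higher averages and smaller true folds than those of HP1Kcd, so its interval was not checked. Genes of similar average or fold lay within 1 log2 unit, and errors over genes of similar average came from absolute folds of 0.2 to 5. The members, the lists and the rule for named genes (members, measured list genes, the 2 nearest genes with a symbol, and rhi) were chosen with earlier results of these data known. Other named genes were chosen after their values were seen. Alternatives were a threshold of 0.01, Bonferroni adjustment, centring on the median gene, a minimum of 2-fold and a minimum rescaled average of 0. The RefSeq gene table matched 1 of 5 members by symbol and carries 0 of the identifiers used by the tables, so no coordinates or sequences are given. Computations used Python 3.11.15, numpy 2.4.6, pandas 2.3.3, scipy 1.17.1 and matplotlib 3.10.9.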

Additional observations from a re-analysis of the deposited data

How the results depend on the processing

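No paired analysis was possible because the tables carry no column per library, and leaving out a replicate could not be run for the same reason. All 5 members kept their direction under the 6 alternatives run on calls, but this outcome was fixed beforehand. A stricter threshold, Bonferroni adjustment, the minimum of 2-fold and the minimum average leave the fold itself unchanged. Centring subtracts the median of -0.85 from every fold, and no member lay that close to 0. The call of HP1A, at -1.36, was lost at a threshold of 0.01 (adjusted p = 0.0416 by the authors' edgeR test) and under Bonferroni adjustment (p = 1 from the same test), and at -0.51 when centring was joined to a minimum of 2-fold. Bonferroni adjustment also ended the calls of HP1C, at -2.84, and HP1Kcd, at 5.29 (p = 0.336 and 0.532 from the authors' edgeR test), which left 0 members called towards testis and 2 towards ovary, HP1B and HP1Da, and 3279 of all D. pseudoobscura genes called towards ovary, against 5269. Of the 3 genes of the chromatin lists called towards ovary there, 1 was left at a threshold of 0.01, 0 under Bonferroni adjustment and 1 with centring and a minimum of 2-fold. With the median error of genes of similar average, taken over folds smaller than its own, the error of HP1Kcd was 0.71 in place of 1.30. Genes similar in both average and fold had a median of 0.87. The other 87 values computed under alternatives kept their direction and their side of the threshold, or moved by less than 1.5 times. Centring alone kept the deposited adjusted p, so a call could change only with the sign of the fold. No p was computed relative to the median gene, and the interval of HP1A relative to it, -1.75 to 0.72, held 0. Intervals rest on the authors' fit, and depth is unknown.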

Other observations

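Further genes with a symbol, outside the lists and chosen after their values were seen, moved in both directions in D. pseudoobscura. Over all its genes 29.6% were called towards testis and 44.1% towards ovary. Lam, which encodes a nuclear lamin, stood at -3.54 and ttk, a transcriptional repressor gene, at -2.14, and in the authors' deposited table both were called towards ovary. In the authors' deposited table e(y)2b was called towards testis at 2.79 and e(y)2 towards ovary at -5.86. The product of e(y)2 in D. melanogaster is a subunit of the SAGA coactivator complex. Relative to the median gene Lam was at -2.69, ttk at -1.29, e(y)2b at 3.64 and e(y)2 at -5.01. SuUR, whose product slows replication of heterochromatin and binds HP1 in D. melanogaster, stood at 0.01 with an adjusted p of 0.983, and Mt2, a methyltransferase gene, at -0.20 with an adjusted p of 0.774, by the authors' edgeR likelihood-ratio test in the authors' deposited table. In D. ananassae SuUR was called towards ovary at -1.02 and the insulator gene su(Hw) at -1.75 in the authors' deposited table, and after centring on the median gene SuUR was at -0.09 and su(Hw) at -0.83. Whether SuUR differs between the species was not tested.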
